A study of Mus musculus with 14 samples.

Results

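The subunits of the SET1 and MLL complexes, the enzymes that methylate lysine 4 of histone H3 (H3K4), were followed in macrophages after knockdown of Wdr82. The group was set by name as 10 genes (Setd1a, Setd1b, Cxxc1, Hcfc1, Ash2l, Rbbp5, Wdr5, Dpy30, Kmt2a and Men1), and 9 of them were matched by gene identifier among the 21761 genes with exon counts and the 18858 genes with intron counts. Setd1b was not analysed here. The study labels describe 14 RNA samples from primary bone marrow-derived macrophages of FVB/hsd mice, and the 4 untreated total-RNA libraries were used. All 4 came from marrow cells differentiated with L929-conditioned medium, infected with retroviral supernatants and selected with puromycin. The libraries named scrambled 1 and scrambled 2 carried a control hairpin, and the libraries named sh1137 and sh830 carried a different hairpin against Wdr82 each, so that each hairpin had 1 library. The labels do not say whether the libraries came from separate animals or cultures, and p-values describe only these libraries. Unless stated, they measure the spread left after adjustment for a difference in intron share between libraries, moderated across genes. In bulk RNA, fewer cells of a type and less RNA per cell cannot be told apart.

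SET1 complexes place most of the H3K4 trimethylation found at active promoters, while the MLL complexes act at selected promoters and at enhancers. Each complex joins a catalytic SET-domain protein to a shared core of WDR5, RBBP5, ASH2L and DPY30, and adds subunits of its own that direct it to chromatin. CXXC1 (also called CFP1) and WDR82 belong to the SET1 complexes, menin (Men1) to the MLL1 and MLL2 complexes, and HCFC1 to both kinds. WDR82 binds the phosphorylated tail of RNA polymerase II and also belongs to a phosphatase complex that acts in transcription termination.

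The promoters of Hcfc1 and Kmt2a are shown because these genes had the smallest p in each direction among the subunits, and because CXXC1 and KMT2A bind unmethylated CpG dinucleotides through a zinc finger. The sequences are from RefSeq (GRCm38.p6), run 5′ to 3′ on the gene's strand from 250 bases before to 50 bases after the annotated start, and have each CpG in capitals. Both genes lie on the minus strand, Hcfc1 at chrX:73966308-73966607 and Kmt2a at chr9:44881240-44881539.

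Hcfc1: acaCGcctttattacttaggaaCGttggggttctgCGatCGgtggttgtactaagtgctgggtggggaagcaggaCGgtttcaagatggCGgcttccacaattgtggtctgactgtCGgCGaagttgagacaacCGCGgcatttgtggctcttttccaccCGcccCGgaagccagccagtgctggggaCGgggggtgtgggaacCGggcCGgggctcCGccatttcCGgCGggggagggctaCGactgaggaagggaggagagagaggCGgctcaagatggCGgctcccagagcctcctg

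Kmt2a: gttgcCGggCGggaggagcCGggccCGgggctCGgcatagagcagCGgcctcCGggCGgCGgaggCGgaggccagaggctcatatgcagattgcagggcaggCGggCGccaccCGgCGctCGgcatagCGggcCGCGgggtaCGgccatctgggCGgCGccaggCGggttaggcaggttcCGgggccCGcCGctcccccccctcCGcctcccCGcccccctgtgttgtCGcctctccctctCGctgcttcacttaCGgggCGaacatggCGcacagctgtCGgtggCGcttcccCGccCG

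The Kmt2a window held 36 CpG and the Hcfc1 window 21, against a median of 7 over 32851 mouse promoter windows of the same length. At least as many CpG were present in 6.23% of all windows for Kmt2a and in 24.8% for Hcfc1. Promoter entries were matched for 7 of the 9 genes (not Cxxc1 and Ash2l), and the most CpG-rich entry of each gene held between 16 and 39 CpG. On either strand, the Hcfc1 window held CCGGAAG, the core of ETS factor sites that is present in 8.86% of all windows. It also held ATGGCGG, the core of YY1 sites, present in 4.05%. The 3 Men1 windows held ACTACAA, the start of the element bound by ZNF143 and THAP11, present in 3.24% of all windows. GCGCATG, part of the NRF1 site, is present in 3.91% of all windows and was not among the letters of these windows. None of the 4 motifs contains another, and a match is a description of the letters only.

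The exon counts of genes summed to between 34787556 and 43372731 per library, and the intron counts to between 7294679 and 27506915. Introns took 40.4% of counts in scrambled 1 and 44.2% in sh1137, but 14.6% in scrambled 2 and 15.2% in sh830. The labels give no batch, and the models below adjust for this difference with what is called the library term unless stated. Wdr82 itself had 100 and 144 exon CPM (counts scaled to 1e6 gene counts per library) in the scrambled libraries and 25.1 in sh1137 and 40.7 in sh830. The knockdown libraries were both below the scrambled ones, with a log2 fold change of -1.91 ± 0.094 (SE; edgeR quasi-likelihood adjusted p = 0.0021). The 8 macrophage markers summed to 10173 and 12143 CPM in the scrambled libraries and to 8598 and 15165 CPM in the knockdown libraries. Among them Cd68 and Fcgr1 fell, with log2 fold changes of -0.94 and -1.51. That is 2 of 8 tested, beside 7.92% of all genes. The marker lists of 7 other cell types summed to at most 147 CPM. The fibroblast list had 9.66 and 42.7 CPM in the scrambled libraries against 44.2 in sh1137 and 147 in sh830. Of its genes 2 of 6 tested rose, beside 6.06% of all genes. The T or NK cell list (1.83 and 1.76 against 5.12 and 4.69 CPM) and the dendritic cell list (3.13 and 1.81 against 6.40 and 4.53) also had both knockdown libraries higher. So did the B cell list (0.587 and 0.452 against 0.854 and 2.30) and the mast cell, basophil or eosinophil list (1.27 and 1.25 against 1.39 and 3.46). Of the genes tested, 1 of 2 rose in the T or NK list and 1 of 4 in the dendritic list, beside 6.06% of all genes. In the B cell list 0 of 3 rose. The 1 gene tested in the mast cell, basophil or eosinophil list did not rise and had a log2 fold change of -0.71. The other 2 lists summed to between 0.703 and 11.4 CPM in the scrambled libraries and between 0.782 and 9.93 in the knockdown libraries. Pax5 of B cells, Fcer1a of mast cells and Pf4 of megakaryocytes were at 0 in all libraries. The part of these differences in the results below was not tested.

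Among the 9 subunits, only Hcfc1 changed in exon counts after Wdr82 knockdown, and it fell. That is 1 of 9, all of which passed the filter on low counts, beside 14% of the 13884 genes tested (841 or 6.06% higher, 1100 or 7.92% lower). The share of subunits called is therefore close to that of all genes. The median log2 fold change of the 9 was -0.20, against -0.01 over all genes tested, and 7 of the 9 values were below 0. With upper-quartile scaling, which shifts the median of all genes by 0.084, 62.1% of the calls were higher instead of 43.3%. With the group term alone edgeR called 0 genes, 646 (4.65%) having an unadjusted p under 0.05, so that no call here holds without the library term. Among the genes named below, none but Wdr82 passed when 1 library was left out, with the group term alone. Wdr82 itself passed without scrambled 1 or sh830, but not without scrambled 2 (adjusted p = 0.22) or sh1137 (0.071).

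Setd1a and Kmt2a encode catalytic subunits. Setd1a, the SET domain enzyme of a SET1 complex (mm9 chr7:134920903-134943633, plus strand), had 93.5 exon CPM in scrambled 1, 46.0 in scrambled 2, 90.7 in sh1137 and 43.7 in sh830. The intron-rich libraries were both high and the intron-poor libraries both low, whichever hairpin they carried, and the groups overlapped. Its log2 fold change was -0.06 ± 0.084 (adjusted p = 0.66, edgeR), and it had the opposite sign, 0.03, with upper-quartile scaling. The span of Setd1a overlaps that of Hsd3b7 on the same strand over 717 bases of exon, and reads there could have been shared.

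Kmt2a encodes MLL1, which maintains the transcription of Hox and other developmental genes (mm9 chr9:44611438-44689357, minus strand). It had 219 exon CPM in scrambled 1, 58.1 in scrambled 2, 260 in sh1137 and 86.8 in sh830. The groups overlapped, but within each library pair of like intron share the knockdown library was the higher, by 0.25 (sh1137 over scrambled 1) and 0.58 (sh830 over scrambled 2) on the log2 scale. The log2 fold change was 0.41 ± 0.11 and did not pass the threshold (adjusted p = 0.058, edgeR). It passed without the filter on low counts (0.41, adjusted p = 0.038), with upper-quartile scaling (0.50, adjusted p = 0.042) and with DESeq2 (0.41, adjusted p = 0.031). With the group term alone it was 0.33 (adjusted p = 0.9995), and without scrambled 2 or without sh1137 the sign turned, to -0.30 and -0.68.

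**Figure D1:**
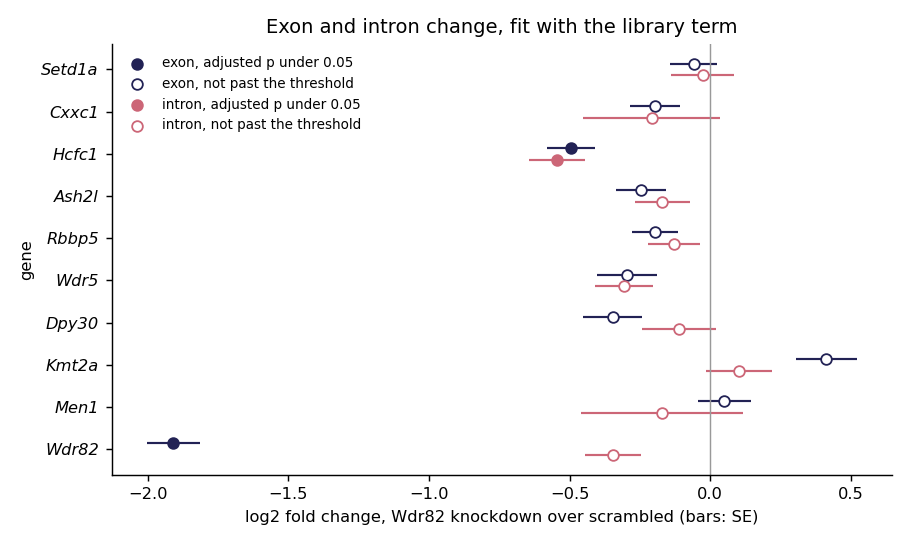
Log2 fold change (x axis) of exon and intron counts of the 9 subunits and Wdr82 (y axis), Wdr82 knockdown over scrambled, in the fit with the library term. Points are estimates and bars the SE, and filled points passed an adjusted p of 0.05: Hcfc1 in both interval types and Wdr82 in exons.

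Of the subunits that direct the enzymes to chromatin, Hcfc1 encodes host cell factor, a large scaffold that links transcription factors to H3K4 methyltransferases (mm9 chrX:71188134-71211654, minus strand). Hcfc1 had 359 and 284 exon CPM in scrambled 1 and 2, and 256 and 200 in sh1137 and sh830. Both knockdown libraries were below both scrambled libraries. The means were 321 ± 53.1 CPM (SD, n = 2) and 228 ± 39.2 CPM (SD, n = 2), a fall of 29.1% in the fold of the fit. The log2 fold change was -0.50 ± 0.086 (adjusted p = 0.023, edgeR), and the library pairs gave -0.49 (sh1137, scrambled 1) and -0.50 (sh830, scrambled 2). With the group term alone the value was the same, -0.50, with an adjusted p of 0.86. Leaving out 1 library, with the group term alone, gave -0.33 without scrambled 1, -0.62 without scrambled 2, -0.69 without sh1137 and -0.31 without sh830, none of which passed.

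Cxxc1, the CpG-binding subunit of the SET1 complexes, had 53.7 and 50.3 exon CPM in the scrambled libraries, and 47.6 and 43.1 in sh1137 and sh830. The groups did not overlap, but the log2 fold change of -0.20 ± 0.089 did not pass (adjusted p = 0.18, edgeR). Men1 encodes menin, which tethers MLL1 and MLL2 to chromatin (mm9 chr19:6334979-6340894, plus strand). It had 36.0 and 37.6 exon CPM in the scrambled libraries and 36.8 and 39.4 in the knockdown libraries. Its libraries differed by a factor of 1.09 at most, and its log2 fold change was 0.05 ± 0.093 (adjusted p = 0.74). The authors' annotation holds a region of transcription outside genes that is named for the end of Ehd1, at mm9 chr19:6300000-6303999, 31.0 kb upstream of Men1. It had 4.30 and 3.19 CPM in the scrambled libraries and 10.4 and 7.54 CPM in sh1137 and sh830. It rose, with a log2 fold change of 1.26 ± 0.20 (adjusted p = 0.020), but its source field names a comparison of hairpin with vector libraries, so its direction is not independent evidence.

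None of the 4 core subunits, which are shared by all SET1 and MLL complexes, passed the test in exon counts, and all 4 had a log2 fold change below 0. Wdr5, the propeller protein that holds the enzyme and the core together (mm9 chr2:27370667-27392055, plus strand), had 86.0 and 101 exon CPM in the scrambled libraries, and 78.3 and 73.8 in sh1137 and sh830. Its groups did not overlap, and its log2 fold change was -0.30 ± 0.11 (adjusted p = 0.12, edgeR). The library pairs differed for Wdr5, with -0.13 in the intron-rich and -0.46 in the intron-poor pair. Ash2l, whose protein pairs with RBBP5 to activate the SET domain (mm9 chr8:26927342-26958142, minus strand), had 63.1 and 69.6 exon CPM against 51.2 and 61.0. Its groups did not overlap either, and its log2 fold change was -0.25 ± 0.088 (adjusted p = 0.11).

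Rbbp5, whose protein binds ASH2L and WDR5 (mm9 chr1:134373944-134402242, plus strand) had 72.3 and 75.6 exon CPM in the scrambled libraries, and 63.0 and 66.1 in sh1137 and sh830. These groups did not overlap, the library pairs gave -0.20 and -0.19, and the log2 fold change of -0.20 ± 0.083 did not pass (adjusted p = 0.16, edgeR). Dpy30, the smallest core subunit, which docks on ASH2L (mm9 chr17:74698814-74723284, minus strand), had 19.5 exon CPM in scrambled 1, 40.4 in scrambled 2, 15.9 in sh1137 and 30.6 in sh830. Here the intron-poor libraries were the high ones, opposite to Setd1a and Kmt2a, and the groups overlapped. The log2 fold change of Dpy30 was -0.35 ± 0.10 (adjusted p = 0.078). The library pairs gave -0.29 (sh1137, scrambled 1) and -0.40 (sh830, scrambled 2). With the group term alone, the value was 0.28 without scrambled 2 and 0.02 without sh1137, but the groups then also differ in intron share.

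In all, 5 of the 9 subunits (Cxxc1, Hcfc1, Ash2l, Rbbp5 and Wdr5) had both knockdown libraries below both scrambled libraries in exon CPM, beside 15.7% of all genes tested. None had both above, again beside 15.7% of all genes. With upper-quartile scaling, a comparison added after the data were seen, 3 subunits (Ash2l, Rbbp5 and Wdr5) had the knockdown libraries lower, beside 12.3% of all genes. Hcfc1 and Cxxc1 were no longer among them. There 1 subunit had the knockdown libraries higher, beside 19.1% of all genes.

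The order of the subunits' levels was compared per length, as exon CPM per kb of annotated exon. Hcfc1 was first with 33.9 ± 8.2 CPM per kb (SD over all 4 libraries), followed by Wdr5 with 29.3 ± 4.2, Ash2l with 24.3 ± 3.0 and Dpy30 with 24.0 ± 10.0. Cxxc1 had 19.2 ± 1.8 and Rbbp5 18.8 ± 1.6 CPM per kb. Men1 with 12.3 ± 0.48, Setd1a with 11.5 ± 4.6 and Kmt2a with 9.42 ± 6.0 CPM per kb came last. Each subunit's range over the libraries overlapped that of its neighbour in this order, except for Rbbp5 and Men1. The median gene tested had 7.38 CPM per kb, and the subunits lay between the 55.8th percentile (Kmt2a) and the 85.7th percentile (Hcfc1) of tested genes.

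The place of Dpy30 moved most, from rank 1 of the 9 in both intron-poor libraries to rank 6 in scrambled 1 and rank 8 in sh1137. Its level stood to that of Ash2l at between 0.70 and 1.32 in the 4 libraries. Wdr5 stood to Rbbp5 at between 1.42 and 1.71, and Ash2l to Rbbp5 at between 1.19 and 1.35. Wdr82 had 23.3 and 33.4 CPM per kb in the scrambled libraries and 5.82 and 9.44 in sh1137 and sh830. Its level was thus 1.48 and 4.31 times that of Setd1a in the scrambled libraries, and 0.38 and 1.28 times in the knockdown libraries. Against Cxxc1, another SET1 subunit, the ratios of the Wdr82 level were 1.10 and 1.69 in the scrambled libraries and 0.31 and 0.56 in sh1137 and sh830, so that the groups did not overlap.

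**Figure D2:**
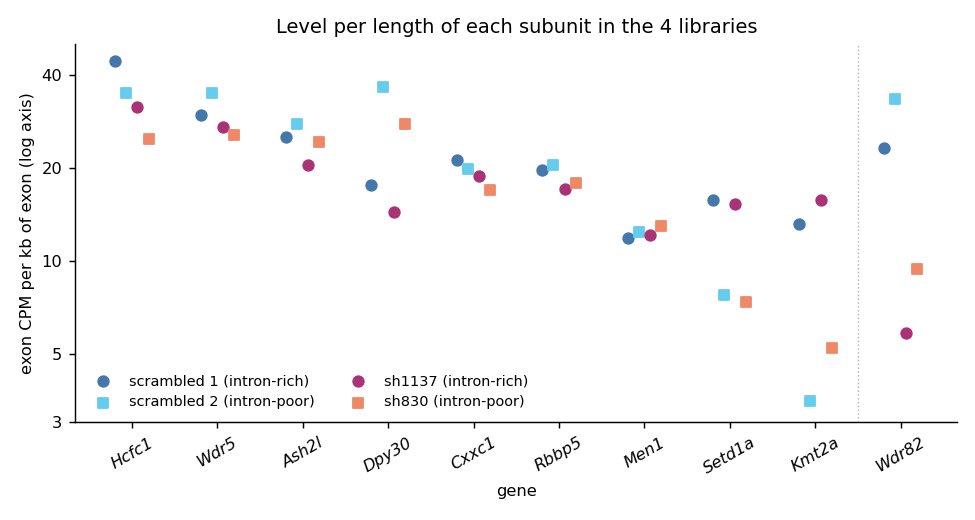
Exon CPM per kb of exon (y axis, log axis) of the 9 subunits in order of their mean, with Wdr82 to the right of the dotted line. Each point is 1 library, circles are the intron-rich and squares the intron-poor libraries, and the circles lie above the squares for Setd1a and Kmt2a and below them for Dpy30.

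The difference between the library pairs was largest for Kmt2a, Setd1a and Dpy30. As log2 of the intron-poor over the intron-rich libraries, the library term was -1.75 for Kmt2a, with 16.6 kb of exon. It was -1.04 for Setd1a with 5.93 kb, -0.35 for Hcfc1 with 8.10 kb and 1.00 for Dpy30 with 1.11 kb. The 5 other subunits, with 2.52 to 3.69 kb of exon, had values between -0.12 and 0.20. Over all genes tested the median of this term was 0.01. It was -0.41 for the 1149 genes with at least 8 kb of exon and 0.42 for the 3578 genes with under 2 kb. The other MLL enzymes, Kmt2b with 8.48 kb of exon, Kmt2c with 20.0 kb and Kmt2d with 19.8 kb, had values of -1.94, -0.85 and -2.04. These points share libraries, and whether RNA integrity or library preparation differed between the pairs was not tested.

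**Figure D3:**
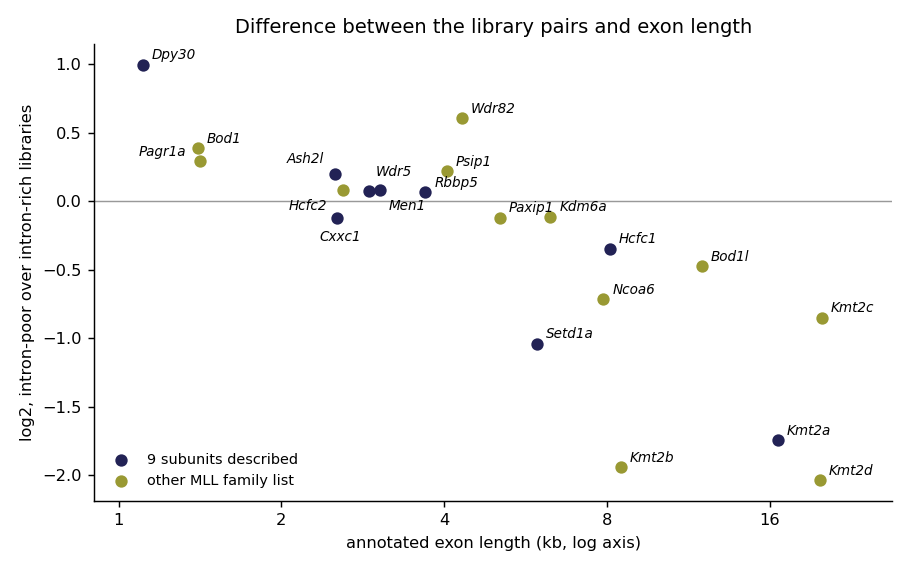
Library term (y axis, log2 of intron-poor over intron-rich libraries) against annotated exon length (x axis, kb, log axis) for the 9 subunits and the other MLL family genes. Each point is 1 gene, with Dpy30 highest at 1.11 kb and Kmt2b and Kmt2d lowest.

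Intron counts, a readout of unspliced RNA, gave the same single call, as Hcfc1 fell again. That is 1 of 9 subunits, beside 10.1% of the 12405 genes tested (6.08% higher, 4.01% lower). With the group term alone edgeR called 0 genes in introns, and 707 (5.7%) had an unadjusted p under 0.05. Hcfc1 had 83.5 and 59.0 intron CPM in scrambled 1 and 2, and 56.2 and 41.3 in sh1137 and sh830. Both knockdown libraries were below both scrambled ones, and the log2 fold change was -0.55 ± 0.099 (adjusted p = 0.023, edgeR; 0.99995 with the group term alone). It was -0.26 without scrambled 1 and -0.35 without sh830, with the group term alone. Cxxc1 and Ash2l also had both knockdown libraries lower in introns, 3 of 9 with Hcfc1, beside 14.1% of all genes, and none had both higher, beside 17.1%. Cxxc1 rests there on between 54 and 141 counts per library. The median log2 fold change of the 9 in introns was -0.17, against -0.01 over all genes.

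Kmt2a had 175 intron CPM in scrambled 1, 106 in scrambled 2, 214 in sh1137 and 98.0 in sh830. The hairpin library sh1137 was above both scrambled libraries and sh830 below both, and the log2 fold change was 0.10 ± 0.12 (adjusted p = 0.63). Setd1a had 38.4, 33.6, 38.0 and 32.6 intron CPM in scrambled 1, scrambled 2, sh1137 and sh830. These values lie closer together than its exon CPM. For Wdr5 the intron CPM were 82.4 and 68.5 in the scrambled libraries and 71.2 and 51.3 in sh1137 and sh830, with overlapping groups and a log2 fold change of -0.31 ± 0.10 (adjusted p = 0.11). The other intron log2 fold changes were -0.13 for Rbbp5, -0.11 for Dpy30 and -0.17 for Men1, whose counts were between 49 and 81 per library.

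None of the 9 subunits passed the test of intron against exon change, beside 3.34% of the 11772 genes tested (1.72% higher, 1.61% lower). Of these calls 51.7% were higher, and 62% with upper-quartile scaling. With the group term alone edgeR called 0 genes, and 68 (0.578%) had an unadjusted p under 0.05. For Hcfc1 the intron change minus the exon change was -0.07 ± 0.11 (log2; edgeR adjusted p = 0.83). The largest value of a subunit was that of Kmt2a, -0.31 ± 0.11 (adjusted p = 0.13). Wdr82 passed, with 1.55 ± 0.12 (adjusted p = 5.5e-15), as its exon counts fell while the log2 fold change in its introns was -0.35 ± 0.10 and did not pass (adjusted p = 0.078). Its intron CPM were 57.5 and 95.8 in the scrambled libraries and 48.0 and 70.7 in sh1137 and sh830.

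The share of introns in a subunit's exon and intron counts followed the library pair. For Hcfc1 it was 11.9% in scrambled 1 and 12.4% in sh1137, and 4.09% in scrambled 2 and 4.26% in sh830. For Dpy30 it was 43.8% and 49.3% in the intron-rich libraries, and 9.65% and 12.2% in the intron-poor ones. For Kmt2a it was 31.7% and 27.2% in scrambled 1 and 2, 34.6% in sh1137 and 19.6% in sh830. The intron-rich share was thus 1.17 times the intron-poor share in the scrambled libraries and 1.76 times in the knockdown libraries. Cxxc1 and Men1, whose introns span under 3 kb in all, had shares between 2.72% and 6.50%. The groups overlapped for all 9 subunits. They did not for Wdr82, with 24.9% and 12.0% in the scrambled libraries and 55.2% and 27.3% in sh1137 and sh830.

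**Figure D4:**
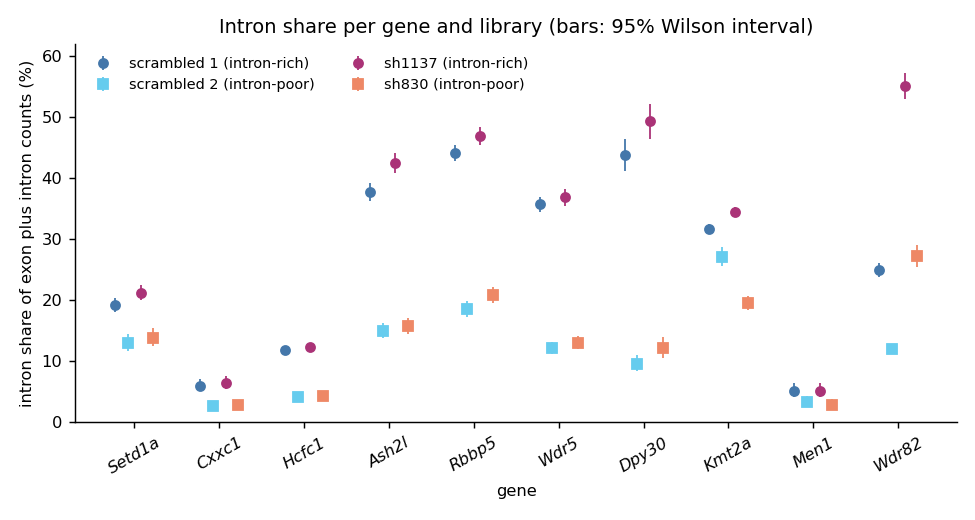
Share of intron counts in exon plus intron counts (y axis, %) of each subunit and Wdr82 in the 4 libraries, with 95% Wilson intervals that cover counting error only. Circles (intron-rich libraries) lie above squares (intron-poor libraries) for the 9 subunits, and only for Wdr82 do both knockdown libraries exceed both scrambled libraries.

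The other MLL family subunits gave no call besides Wdr82. The list of 12 genes, all tested, also holds Wdr82, a SET1 subunit and the target of the knockdown. Wdr82 was the 1 gene that fell, and none of the others was called, beside 7.92% of all genes lower and 6.06% higher. The median log2 fold change, with Wdr82 included, was -0.02. Hcfc2, the smaller relative of Hcfc1, had 35.3 and 36.3 exon CPM in the scrambled libraries and 27.1 and 29.5 in sh1137 and sh830. Its groups did not overlap, and its log2 fold change was -0.34 ± 0.098 (adjusted p = 0.070, edgeR). The enzymes Kmt2b, Kmt2c and Kmt2d had log2 fold changes of 0.09, 0.03 and 0.34, the last with an adjusted p of 0.088. Of the subunits particular to the MLL3 and MLL4 complexes, Kdm6a, an H3K27 demethylase, had 0.09, Ncoa6 -0.05, Paxip1 -0.12 and Pagr1a -0.11. Psip1, which binds menin, had -0.06, Bod1 0.01 and Bod1l, a partner of SETD1A, 0.28. Ncoa6 and Psip1 had the opposite sign with upper-quartile scaling, 0.03 and 0.02.

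Among the H3K4 demethylases and their partners, 3 of 12 rose and none fell in exons, beside 6.06% of all genes tested higher and 7.92% lower, and the median was 0.30. Phf21a, a reader of unmethylated H3K4 in the KDM1A complex, had 31.4 and 24.8 exon CPM in the scrambled libraries and 47.7 and 40.6 in sh1137 and sh830, and rose by 0.66 ± 0.097 (log2; adjusted p = 0.017, edgeR). Kdm5b, an H3K4 demethylase named here after its values were seen, had 28.6 and 16.7 CPM against 41.6 and 39.0, and rose by 0.88 ± 0.18 (adjusted p = 0.032). The groups did not overlap in either gene, and Kdm5b had 0.53 without scrambled 2, with the group term alone. Both also rose in introns (3 of 11 in the list, beside 6.08% of all genes), Phf21a by 0.73 with overlapping groups and Kdm5b by 0.59 without overlap, where the call of Kdm5b was lost with DESeq2 (adjusted p = 0.17). With 1 library left out, the intron value of Phf21a lay between -0.083 (without sh1137) and 1.56 (without scrambled 1), and that of Kdm5b was 0.39 without sh830.

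Of 16 readers of H3K4 methylation, 1 fell and none rose in exons, beside 7.92% and 6.06% of all genes, with a median of -0.10. Ing5 had 35.9 and 31.6 exon CPM in the scrambled libraries and 21.9 and 23.9 in sh1137 and sh830, a log2 fold change of -0.55 ± 0.12 (adjusted p = 0.038, edgeR; 0.060 with upper-quartile scaling). In introns 1 reader rose and 3 fell, beside 6.08% and 4.01% of all genes, all named after their values were seen, with log2 fold changes of 1.10 for Zcwpw1, -0.60 for Ing5, -0.42 for Taf3 and -0.57 for Phf2. With DESeq2 the calls of Zcwpw1, Ing5 and Taf3 were lost (adjusted p = 0.16, 0.14 and 0.053). With 1 library left out, the intron values were 0.45 (without sh830) to 1.74 (without scrambled 2) for Zcwpw1, -1.04 (without sh1137) to 0.18 (without scrambled 1) for Taf3 and -1.20 (without sh1137) to -0.067 (without scrambled 1) for Phf2, whose groups overlapped in all 3. The intron change of Phf2 minus its exon change was -0.52 (adjusted p = 0.0057), and -0.96 without sh1137 and -0.14 without sh830. None of the 11 genes for H2B ubiquitylation and the PAF1 complex, which act before H3K4 methylation, passed in exons (median -0.09). Of all genes, 6.06% were higher and 7.92% lower. In introns 1 of the 10 tested rose, beside 6.08% of all genes. This was Ube2b, by 0.40 (edgeR adjusted p = 0.045, and 0.12 with DESeq2). Ube2b had 0.65 without sh1137 and 0.16 without sh830, and was named after its value was seen.

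Among 15 genes listed as targets of menin and MLL1, 9 passed the filter on low counts, 1 rose and 1 fell, beside 6.06% and 7.92% of all genes, with a median of 0.36. Both called genes encode inhibitors of cyclin-dependent kinases. Cdkn1b had 28.7 and 29.7 exon CPM in the scrambled libraries and 37.0 and 43.8 in sh1137 and sh830, a log2 fold change of 0.46 ± 0.10 (adjusted p = 0.040, edgeR; 0.068 with DESeq2). Cdkn2c had 61.2 and 75.9 CPM against 40.2 and 56.8, a log2 fold change of -0.51 ± 0.095 (adjusted p = 0.027), which was -0.31 without scrambled 2 and -0.28 without sh1137. Meis1, a homeobox gene named after its value was seen, rose in introns by 0.62 (adjusted p = 0.025; 0.082 with DESeq2). Its groups overlapped there, and the value was -0.15 without sh1137 and 1.45 without scrambled 1.

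Of 23 other SET domain methyltransferases, 1 rose and 4 fell in exons, beside 6.06% and 7.92% of all genes, with a median of -0.11. Kmt5c, an H4K20 methyltransferase, had 36.0 and 22.7 exon CPM in the scrambled libraries and 65.7 and 32.4 in sh1137 and sh830, and its log2 fold change was 0.69 ± 0.12 (adjusted p = 0.023, edgeR). Its groups overlapped, and the value was 0.14 without sh1137, 1.10 without scrambled 1 and 1.18 without sh830. Nsd2, an H3K36 methyltransferase, had 458 and 319 CPM against 311 and 214, a log2 fold change of -0.57 ± 0.088 (adjusted p = 0.019), which was -0.29 without scrambled 1, -0.87 without sh1137 and -0.30 without sh830. Smyd5 had 38.2 and 42.7 CPM against 26.1 and 28.1, a log2 fold change of -0.57 ± 0.096 (adjusted p = 0.022). Suv39h1, an H3K9 methyltransferase, and Kmt5a, an H4K20 methyltransferase, fell by 0.45 and 0.39 and were named after their values were seen, and the call of Kmt5a was lost with DESeq2 (adjusted p = 0.054) and with upper-quartile scaling (0.063). Their groups overlapped, and with 1 library left out Suv39h1 had -0.73 (without sh830) to -0.19 (without scrambled 2) and Kmt5a -0.65 (without sh830) to -0.099 (without scrambled 2). In introns 1 rose and 2 fell, beside 6.08% and 4.01% of all genes. Kmt5c rose by 0.87, Nsd2 fell by 0.63 and Ezh2, an H3K27 methyltransferase, fell by 0.38 (adjusted p = 0.047; 0.081 with DESeq2). The groups overlapped in all 3, and with 1 library left out Kmt5c had 0.33 (without sh1137) to 1.46 (without scrambled 1), Nsd2 -1.16 (without sh1137) to -0.087 (without scrambled 1) and Ezh2 -0.86 (without sh1137) to 0.15 (without scrambled 1). The intron change minus the exon change was -0.42 for Ash1l (adjusted p = 0.019) and -0.43 for Setd7 (adjusted p = 0.032), both also named after their values were seen. Without scrambled 1 these were -0.87 and -0.79, and without scrambled 2 they were 0.00074 and -0.095.

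**Figure D5:**
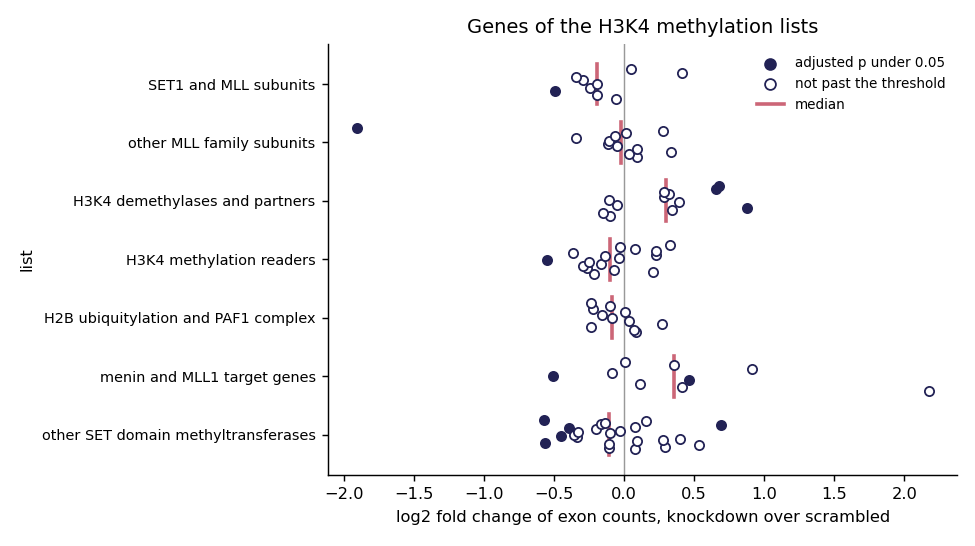
Log2 fold change of exon counts (x axis, Wdr82 knockdown over scrambled, fit with the library term) of each tested gene in the subunit group and the 6 lists (y axis). Filled points passed an adjusted p of 0.05 and the vertical bar is the list's median, which is -0.20 for the subunits and 0.30 for the demethylases and partners.

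The genes whose pattern over the 4 libraries lay closest to that of Hcfc1, by the Euclidean distance of centred log2 CPM among 12015 genes, were Pfas (0.021), Usp10 (0.045) and Ddx11 (0.045). Pfas had 141 and 111 exon CPM in the scrambled libraries and 102 and 78.6 in sh1137 and sh830. Genes were chosen here by their values in the same 4 libraries, so changes near those of Hcfc1 or Kmt2a follow from the choice. The log2 fold changes of Pfas, Usp10 and Ddx11 were -0.48, -0.49 and -0.49. That of Ddx11 did not pass with DESeq2 (adjusted p = 0.060) or upper-quartile scaling (0.052). Without sh830 the 3 values were -0.29, -0.27 and -0.32, and without scrambled 1 Pfas had -0.31 and Usp10 -0.30. The genes closest to Kmt2a were Aoc2 (0.081), Omd (0.086) and Col4a5 (0.092). Col4a5 had 39.1 exon CPM in scrambled 1, 9.23 in scrambled 2, 45.1 in sh1137 and 14.3 in sh830, so that the intron-rich libraries were high as in Kmt2a. None of these 3 passed the test, with log2 fold changes of 0.40, 0.71 and 0.41.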

How the data were processed

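Total RNA from puromycin-selected macrophages was depleted of ribosomal RNA and made into strand-marked TruSeq libraries, per the labels' protocols. Raw counts over exon intervals and over intron intervals were deposited by the authors for each gene, and 4 libraries were used. Positions of genes (mm9) are other values that the authors deposited in an annotation. Per the submitters' processing notes the tools were SICER, TopHat 1.3.1, Cuffdiff 2.1.1 and Cufflinks 2.1.1, with no role given. The counting tool and its use of strand are not given in the sources used here, so overlapping genes could have shared reads.

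Counts were fitted with edgeR 4.0.16 under R 4.3.3, using TMM factors, filterByExpr, a group term and a term for libraries with an intron share above or below the median of the 4. This leaves 1 residual degree of freedom, and calls rest on moderation across genes. Genes and regions were fitted together in exons, quasi-likelihood F-tests were adjusted by the Benjamini-Hochberg method, and rose or fell means an adjusted p under 0.05. Intron and exon change were compared by a group-by-interval interaction with 1 term per library. The fits were tested on simulated data, where the exon and intron fits called more unchanged genes than the threshold allows. CPM are scaled by the TMM factors. Distances between genes used log2 CPM with 0.5 added and a mean of at least 1 CPM. No 2 libraries agreed within sampling noise. Alternatives were the group term alone, no filter, upper-quartile factors, DESeq2 1.42.0 and leaving out each library.

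The genes named were all subunits and Wdr82, every other MLL family gene, up to 2 called genes in each direction of each list, the 3 genes nearest to the subunit with the smallest p in each direction, and regions within 50 kb of a subunit. The subunits, lists and fit were chosen with earlier results of these data known. Some genes that the rule names are not reported here.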

Additional observations from a re-analysis of the deposited data

Results flagged for a closer look

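The intron counts of Kmt2a lay on opposite sides of the scrambled libraries in the knockdown libraries. The library sh1137 had 214 intron CPM, above both scrambled libraries (175 and 106), and sh830 had 98.0 intron CPM, below both. Against the scrambled library of like intron share, the log2 differences were 0.29 for sh1137 and -0.11 for sh830. Each hairpin had 1 library, hairpin and library pair cannot be told apart, and the difference between them was not tested.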

How the results depend on the processing

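Each group has 2 libraries, and the calls rest on the library term, which leaves 1 residual degree of freedom. The depth of 49 to 141 intron counts per library limits Men1 and Cxxc1. No paired analysis was possible because the labels number only the scrambled libraries and name the others by hairpin. This concerns pairing by label only. The library term in effect pairs the libraries, scrambled 1 with sh1137 (intron-rich) and scrambled 2 with sh830 (intron-poor). These pairs of like intron share come from the data and not from the labels, and the calls with the library term rest on them. With the group term alone, 0 genes were higher or lower in exons, introns or intron against exon change, and 0 subunits were called in exons or introns. The subunits called in exons numbered 2 without the filter, with upper-quartile factors and with DESeq2, the second being Kmt2a. Beside these, 925 of all genes were higher and 1254 lower without the filter. With upper-quartile factors 1026 were higher and 627 lower, and with DESeq2 754 were higher and 931 lower. Genes higher in introns numbered 1233 without the filter and 1136 with upper-quartile factors, and genes lower 1133 without the filter and 318 with DESeq2. Genes with a higher intron against exon change numbered 330 with upper-quartile factors. The fall of Hcfc1 kept its side of the threshold under the 3 alternatives with the library term, in exons (adjusted p between 0.0015 and 0.037) and introns (between 0.00073 and 0.037). Upper-quartile factors turned the sign of Setd1a (0.025 in exons, 0.015 in introns), Ncoa6 (0.031) and Psip1 (0.021). They left 3 subunits with lower, non-overlapping knockdown libraries in exons, without Hcfc1 and Cxxc1. Per kb of intron and exon, the mean intron share was 6.71% for Setd1a, 3.62% for Ash2l, 7.35% for Rbbp5, 5.21% for Wdr5, 2.28% for Dpy30 and 9.72% for Kmt2a.

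Without each library in turn, with the group term alone, exon calls were 13 to 190 higher and 1 to 28 lower, intron calls 3 to 209 higher and 0 to 42 lower, and intron against exon calls 0 to 3 higher and 0 to 0 lower, with 0 subunits called in each. The lone library of a group is then assumed to vary like the other group. The log2 fold changes whose sign turned had these ranges in exon counts, Setd1a from -0.68 to 0.54, Dpy30 from -0.91 to 0.28, Kmt2a from -0.68 to 1.57, Kmt2b from -1.18 to 1.37, Kmt2c from -0.43 to 0.55, Kmt2d from -0.998 to 1.70, Ncoa6 from -0.43 to 0.37, Pagr1a from -0.32 to 0.12, Psip1 from -0.19 to 0.064, Bod1 from -0.22 to 0.28, Bod1l from -0.016 to 0.61, Aoc2 from -0.83 to 1.74, Col4a5 from -0.76 to 1.67, Omd from -0.85 to 2.62. The ranges in intron counts were Setd1a from -0.13 to 0.084, Rbbp5 from -0.25 to 0.0060, Dpy30 from -0.27 to 0.071, Kmt2a from -0.51 to 0.60, Men1 from -0.62 to 0.28, Wdr82 from -0.68 to 0.030, Ezh2 from -0.86 to 0.15, Meis1 from -0.15 to 1.45, Phf21a from -0.083 to 1.56, Taf3 from -1.04 to 0.18. The ranges in intron against exon change were Setd1a from -0.43 to 0.49, Cxxc1 from -0.23 to 0.21, Hcfc1 from -0.13 to 0.0040, Ash2l from -0.091 to 0.23, Rbbp5 from -0.077 to 0.19, Wdr5 from -0.27 to 0.20, Dpy30 from -0.44 to 0.90, Kmt2a from -0.95 to 0.27, Men1 from -0.67 to 0.17, Ash1l from -0.87 to 0.00074. These fits hold no library term, so with 1 library left out the groups also differ in intron share. The cause of each move was not tested.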
